A study of Mus musculus with 4 samples.

Results

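The genes described here are interferon-stimulated antiviral genes, which cells switch on when they sense a virus or receive interferon. A list of 36 genes was matched to the gene names in the array annotation, and 35 of them were measured, by 68 targets out of 44170. Usp18, a protease that removes Isg15 from proteins, was not analysed here. The fit covered 24172 genes in all. Nearly every target is a set of 3 probes (44155 of 44170). The brightest target over the 4 arrays stood for each gene.

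In brief, cytosolic and endosomal sensors detect viral nucleic acid and trigger the release of type I interferon. Interferon then acts through its receptor on transcription factors that include Stat2 and Irf9, whose complex binds a promoter element called the interferon-stimulated response element (ISRE). The genes switched on in this way block entry, translation, replication or release of viruses. Many of them are transcribed at a low level in the absence of infection.

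RNA came from cells labelled as Neuro2a (N2a), a mouse neuroblastoma line grown in serum-containing medium. By the labels, 2 arrays were of cells given a scramble siRNA, the control, and 2 of cells given an siRNA against Men1. The product of Men1 is menin, a nuclear protein found in complexes that methylate histone H3. The labels state neither the siRNA dose nor the time after transfection. Nor do they say that replicates were separate cultures, so the spread behind each p-value may be technical. With 2 arrays a group, the smallest two-sided p of an exact permutation test is 0.333, and each gene was therefore tested by limma across all genes. Both groups went through transfection, and no untransfected cells are among the arrays.

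On the 4 arrays the median intensity was between 145.9 and 151.2, and 40.2% to 41.0% of targets lay under 100, taken as the level well above background. Random-sequence control probes read from 42.8 to 52.3. Across targets, r was 0.948 between the scramble siRNA arrays, 0.945 between the Men1 siRNA arrays, and from 0.901 to 0.934 between arrays of different groups. Men1 itself read 6985 and 6222 with scramble siRNA, against 2764 and 4109 with Men1 siRNA. On the log2 scale Men1 had −0.97 ± 0.35 (SE, 2 arrays each; limma adjusted p = 0.314). Its other target read 3843 and 3824 against 2989 and 3802, a change of −0.19 ± 0.33. Among markers of the neuroblast lineage of the labelled line, Mycn read from 877 to 1607 and Chga from 3178 to 6539.

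Most antiviral genes read lower on the Men1 siRNA arrays. The log2 change, Men1 siRNA minus scramble siRNA, was negative for 32 of 35 genes, with a median of −1.55 and a range from −4.36 for Oas2 to 2.66 for Oas3. Over all genes the median was 0.06, and 45.5% of genes were negative. For 27 of the 35 genes both Men1 siRNA arrays read below both scramble siRNA arrays, against 21.7% of all genes. For 1 gene, Oas3, both read above, against 25.8% of all genes, and 7 genes overlapped.

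Limma tests, two-sided and adjusted over all 24172 genes by the Benjamini-Hochberg method, called 2 of the 35 genes lower and 0 higher at 0.05. Of all genes, 0.352% were called lower and 0.0372% higher. The called genes were Ifitm1 and Ifitm3. At an unadjusted p under 0.05, 24 members were lower and 1 was higher, beside 7.74% of all genes lower and 6.47% higher. A log2 change of −1 or lower was found for 26 members (8.29% of all genes), and of −2 or lower for 12 members (2.06% of all genes). A change of 1 or higher was found for 1 member (6.3% of all genes). With any 1 array left out, no member and no other gene passed, while 22 to 26 members had an unadjusted p under 0.05, beside 2105 to 3357 of all 24172 genes.

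The median member intensity was 592 and 369 with scramble siRNA, against 105 and 126 with Men1 siRNA. Of the 35 genes, 5 and 4 lay under 100 on the scramble siRNA arrays, against 17 and 13 on the Men1 siRNA arrays. For 13 genes both Men1 siRNA arrays were under 100, so their fitted change depends on readings under that level. With every value under 100 set to 100, the members' median change was −1.21. In RNA from a whole culture, fewer cells of a type and less RNA per cell cannot be told apart.

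**Figure D1:**
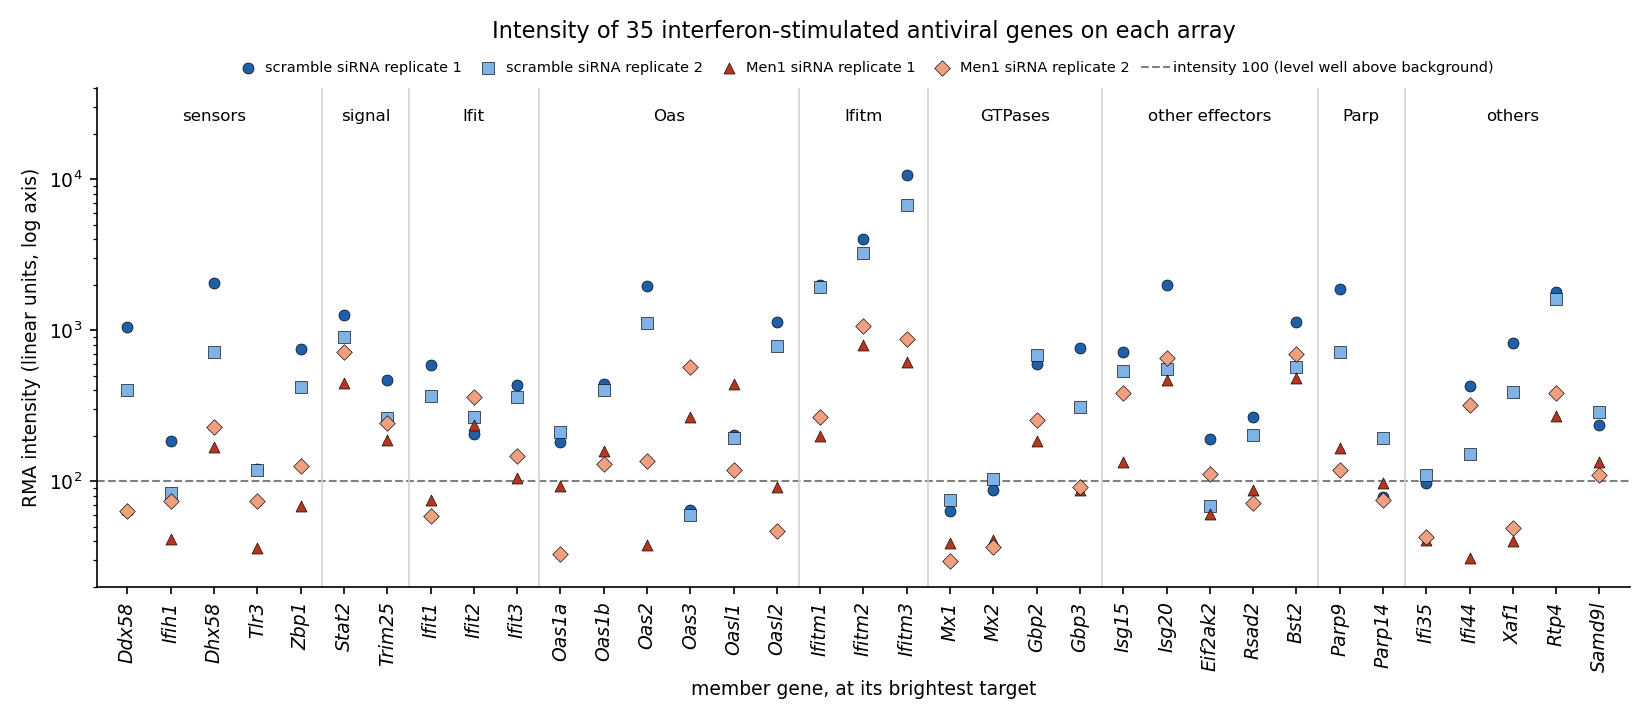
Intensity of the 35 measured genes on each array at the brightest target, grouped by role, on a log axis; the dashed line marks 100. For 27 genes both Men1 siRNA points lie below both scramble siRNA points, and Oas3 is the gene with both above.

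The 2 called genes belong to a family of interferon-induced transmembrane proteins that restrict entry of enveloped viruses, and both lie in a gene cluster on chromosome 7. Ifitm3 (gene ID 66141, chromosome 7, 148195487 to 148196595 on build MM9) read 10734 and 6775 with scramble siRNA, against 619 and 876 with Men1 siRNA. Its highest Men1 siRNA reading lay far under its lowest scramble siRNA reading, and it was the brightest of all members on the scramble siRNA arrays. Ifitm3 fell by 3.53 ± 0.39 (SE, n = 2 per group) on the log2 scale, with a limma adjusted p of 0.0420.

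Ifitm1 (gene ID 68713, chromosome 7, 148154046 to 148155717 on MM9) read 1980 and 1946 with scramble siRNA, against 199 and 267 with Men1 siRNA. Its scramble siRNA arrays were nearly equal, and the groups were far apart. Ifitm1 fell by 3.09 ± 0.33 (SE, n = 2 per group; limma adjusted p = 0.0405). The other 2 Ifitm1 targets above background had changes of −2.96 and −2.90, and the remaining target was under 100 on every array. Ifitm2 read 4038 and 3239 against 801 and 1075, a change of −1.96 ± 0.34 that did not pass (adjusted p = 0.105). All 3 genes thus stayed above 100 on every array while their groups did not overlap. The Ifitm genes are similar in sequence, and whether their probes tell them apart was not tested. Without scramble siRNA replicate 1, scramble siRNA replicate 2, Men1 siRNA replicate 1 or Men1 siRNA replicate 2, the adjusted p of Ifitm3 was 0.306, 0.149, 0.135 and 0.106, with changes from −3.20 to −3.87. For Ifitm1 the same values were 0.311, 0.172, 0.135 and 0.106, with changes from −2.88 to −3.30. With a floor at 100, adjusted p was 0.191 for Ifitm3 and 0.131 for Ifitm1, and with cyclic loess that of Ifitm3 was 0.0518. With the replicate number as a block, adjusted p was 0.0653 for Ifitm3 and 0.0654 for Ifitm1.

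Promoter sequences are shown for 5 members: the called Ifitm3 and Ifitm1, the textbook ISRE genes Ifit1 and Isg15, and Oas3, which ran the other way. Each is the RefSeq window of build GRCm38.p6 from 250 bases before to 50 after the gene start, 5′ to 3′ along the gene's strand. Capitals mark every match to the ISRE core, GAAA followed by any 2 bases and GAAA again, on either strand. The windows are chr7:141010695-141010994 (minus strand) for Ifitm3, chr7:140967826-140968125 (plus) for Ifitm1 and chr19:34640639-34640938 (plus) for Ifit1. Those of Isg15 and Oas3 are chr4:156200769-156201068 and chr5:120777610-120777909, both on the minus strand.
Ifitm3: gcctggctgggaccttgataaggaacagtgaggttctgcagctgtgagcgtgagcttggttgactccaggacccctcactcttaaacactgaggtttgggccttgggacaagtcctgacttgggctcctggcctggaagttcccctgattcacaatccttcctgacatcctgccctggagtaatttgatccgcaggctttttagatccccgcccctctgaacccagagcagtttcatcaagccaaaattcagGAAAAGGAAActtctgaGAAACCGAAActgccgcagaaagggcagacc
Ifitm1: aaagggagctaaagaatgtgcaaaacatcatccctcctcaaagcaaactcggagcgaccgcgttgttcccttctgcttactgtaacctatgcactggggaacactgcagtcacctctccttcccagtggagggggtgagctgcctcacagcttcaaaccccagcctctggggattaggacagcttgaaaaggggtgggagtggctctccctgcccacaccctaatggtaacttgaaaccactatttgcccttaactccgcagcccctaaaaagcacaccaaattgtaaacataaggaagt
Ifit1: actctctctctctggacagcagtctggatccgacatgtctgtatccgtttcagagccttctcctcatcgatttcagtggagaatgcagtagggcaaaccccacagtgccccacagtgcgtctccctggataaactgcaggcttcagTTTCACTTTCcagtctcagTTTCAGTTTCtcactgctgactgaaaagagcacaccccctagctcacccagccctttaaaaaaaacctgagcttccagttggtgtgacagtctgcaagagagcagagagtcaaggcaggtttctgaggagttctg
Isg15: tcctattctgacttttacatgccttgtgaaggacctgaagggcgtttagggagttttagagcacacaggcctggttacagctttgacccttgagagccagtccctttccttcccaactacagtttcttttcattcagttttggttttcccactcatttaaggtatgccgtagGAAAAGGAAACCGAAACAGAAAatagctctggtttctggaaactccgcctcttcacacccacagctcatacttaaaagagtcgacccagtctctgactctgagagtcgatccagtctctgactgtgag
Oas3: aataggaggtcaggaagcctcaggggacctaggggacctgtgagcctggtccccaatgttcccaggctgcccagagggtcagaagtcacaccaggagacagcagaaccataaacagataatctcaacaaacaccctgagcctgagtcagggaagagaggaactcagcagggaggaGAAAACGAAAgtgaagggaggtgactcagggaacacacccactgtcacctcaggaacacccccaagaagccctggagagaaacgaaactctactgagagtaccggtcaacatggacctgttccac

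Ifit1 has 2 separate matches, beginning at positions −104 and −85 from the gene start. Isg15 has 3 overlapping ones at −78, −72 and −66. In Ifitm3 both matches lie just inside the transcript, at 3 and 20. Oas3 has 1 match at −75, and the Ifitm1 window has none, which says only that these letters are not in this window.

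RefSeq windows were at hand for 26 of the 35 measured members, matched by symbol and gene ID, with 30 windows in all. The ISRE core was found for 15 of these 26 genes, or 57.7%, against 3.99% of 27025 genes with a window. By window, 15 of 30 member windows held it, and 3.44% of all 32851 windows of the same length. A second element, the gamma-activated site TTCNNNGAA, searched on both strands, was found for 7 of 26 members (26.9%) and 9.55% of all genes. Of the members, 4 held both, and in 2 windows the motifs shared bases.

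The changes ranged widely both with and without the ISRE core. The 15 genes with a match had a median log2 change of −1.56, from −3.53 to 2.66, with both Men1 siRNA arrays below for 12 of them. The 11 genes with a window and no match had a median of −1.22, from −3.85 to 0.32, with both arrays below for 7. The 9 members without a window had −2.41. These are descriptions with no test, and a match is no evidence of binding in these cells.

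**Figure D2:**
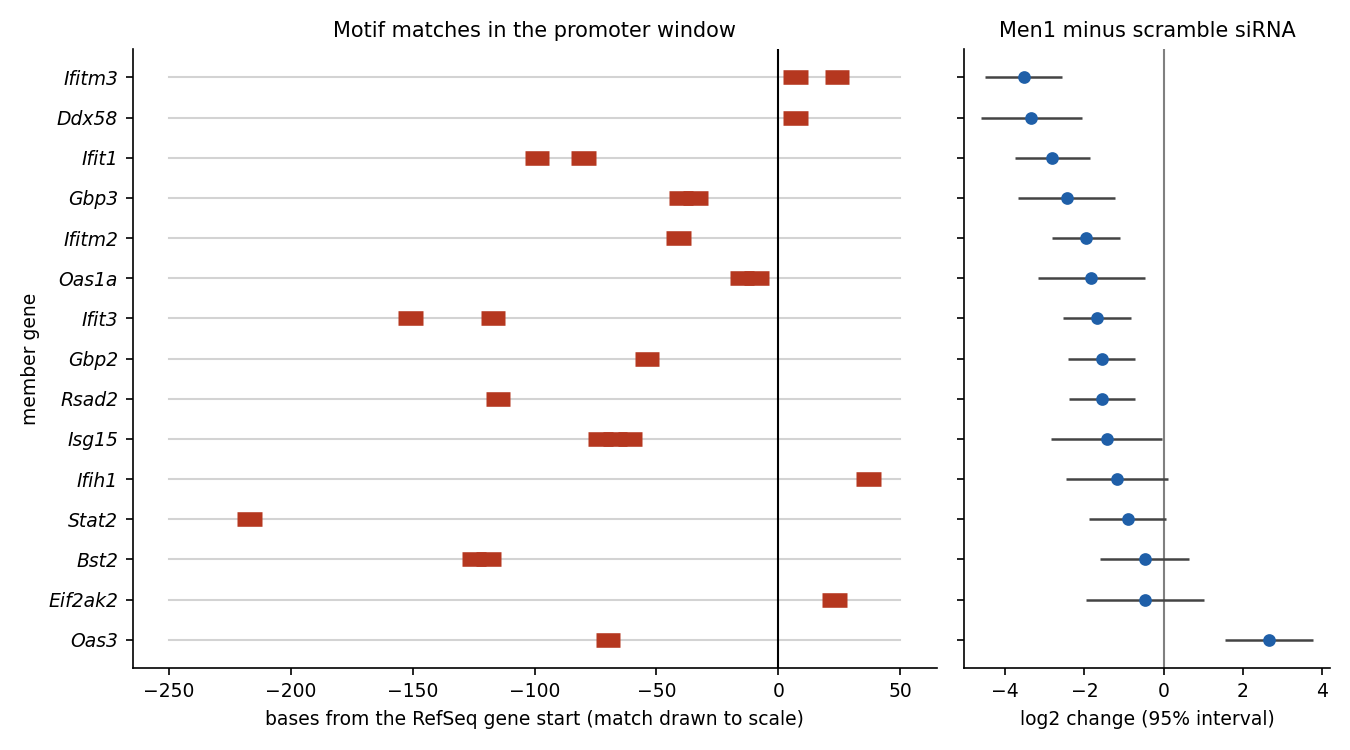
Left, position of each ISRE core match (red) in the window of 250 bases before to 50 after the RefSeq start, for the 15 members with a match; right, their log2 change with its 95% confidence interval (n = 2 arrays per group). Isg15 has 3 overlapping matches, and Oas3, the member with the largest positive change, has 1.

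At their brightest targets all 5 sensors of foreign nucleic acid read lower on both Men1 siRNA arrays, against 21.7% of all genes. Their median log2 change was −2.60. None passed the limma test, and 4 were lower at an unadjusted p under 0.05, beside 7.74% of all genes. The groups overlapped at some other targets of Ddx58, Dhx58, Ifih1 and Tlr3. Ddx58 encodes RIG-I, which detects viral RNA ends in the cytosol. It read 1053 and 405 with scramble siRNA, against 65.2 and 63.5 with Men1 siRNA at its brightest target. The scramble siRNA arrays themselves differed by more than 2-fold, and both Men1 siRNA arrays were near background. From the group means, as for every such bound here, Ddx58 was at least 6.53-fold lower without passing (limma adjusted p = 0.0854). Its other 2 targets had −0.73 and 0.21, the last of them under 100 on every array.

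Dhx58 encodes Lgp2, a helicase related to RIG-I that tunes its signalling. It read 2047 and 718 with scramble siRNA, against 170 and 227 with Men1 siRNA, so scramble siRNA replicate 1 stood well above the rest. The change was −2.63 ± 0.56 (SE, n = 2 per group; adjusted p = 0.154), and −1.87 without that array. Zbp1, a sensor of Z-form nucleic acid that can trigger cell death, read 751 and 423 against 68.5 and 126, a change of −2.60 ± 0.47 (adjusted p = 0.113). Its other target had −1.03.

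Ifih1, which encodes the long double-stranded RNA sensor Mda5, and Tlr3, the endosomal receptor for double-stranded RNA, were dim throughout. Ifih1 read 185 and 84.2 against 41.5 and 73.8, and its other 2 targets were under 100 on every array. Tlr3 read 121 and 119 against 36.02 and 73.7, with −1.10 and −0.25 at its other targets. Both Men1 siRNA arrays were under 100 for both genes. From the group means Ifih1 was at least 1.25-fold and Tlr3 at least 1.2-fold lower, without passing. Scramble siRNA replicate 2 was itself under 100 for Ifih1, and the interval of the Ifih1 log2 change ran from −2.46 to 0.12.

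The signal carriers on the list were lower by less. Stat2, a subunit of the ISRE-binding complex, read 1264 and 895 with scramble siRNA, against 448 and 716 with Men1 siRNA. Its change was −0.91 ± 0.39, with a 95% confidence interval from −1.89 to 0.07 (adjusted p = 0.379). Trim25, the ubiquitin ligase that activates RIG-I, had −0.72 ± 0.41 at its brightest target, where it read 467 and 262 against 188 and 242. At its other target it read 625 and 316 against 92.2 and 124, a change of −2.05. The groups did not overlap at either Trim25 target, and the 2 targets differ in size of change.

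The Ifit proteins bind viral RNA and block its translation. Their 3 genes lie together on chromosome 19 and did not run alike. Ifit1 read 592 and 369 with scramble siRNA, against 75.5 and 58.9 with Men1 siRNA, at least 4.68-fold lower without passing (adjusted p = 0.0695). Ifit3 read 436 and 359 against 105 and 147, a change of −1.68 ± 0.35 (adjusted p = 0.146). Its near-identical copy Ifit3b had −1.40 ± 0.32, and the probes may not tell these paralogs apart. Ifit2 read 205 and 267 against 235 and 361, so its groups overlapped. The change of Ifit2 was 0.32 ± 0.37, with an interval from −0.61 to 1.24.

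The Oas genes encode enzymes and relatives that answer double-stranded RNA, the enzymes by making a messenger that activates RNase L. Of the 6 genes, 4 read lower on both Men1 siRNA arrays and 1 higher on both, against 21.7% and 25.8% of all genes, and 1 overlapped. Oas2 (chromosome 5, 121180342 to 121185584 on MM9) read 1974 and 1111 with scramble siRNA, against 38.1 and 136 with Men1 siRNA. Its change of −4.36 ± 0.67 was the most negative of all members, though 1 of the Men1 siRNA arrays was under 100 and the test was not passed (adjusted p = 0.0854). Its other 2 targets had −3.21 and −1.73 with no overlap.

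Oasl2, an Oas relative that also carries ubiquitin-like domains, read 1140 and 787 against 92.3 and 46.8. It was at least 9.47-fold lower without passing (adjusted p = 0.0508). Oas1b had −1.55 ± 0.32 at its brightest target, reading 443 and 403 against 159 and 130, and −1.67, −2.22 and −2.40 at the other 3. At all 4 Oas1b targets both Men1 siRNA arrays were lower. Oas1a read 183 and 212 against 93.2 and 33.0, at least 1.97-fold lower without passing. At its other target Oas1a read 124 and 47.5 against 48.6 and 55.0, overlapping, with −0.57. Oas1a and Oas1b are close paralogs that may share signal.

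Oas3 (chromosome 5, 121213925 to 121227668 on MM9), the neighbour of Oas2 in the same gene cluster, went the other way. It read 64.3 and 59.4 with scramble siRNA, against 268 and 573 with Men1 siRNA. Both scramble siRNA arrays were under 100 and both Men1 siRNA arrays above. Oas3 was at least 3.92-fold higher without passing (limma adjusted p = 0.0978), with a positive fitted change in each fit that left out 1 array, from 2.12 to 3.21. It was measured by 1 target, so no other target of the gene bears on this value. Oasl1 read 202 and 194 against 440 and 119, so its Men1 siRNA arrays lay on either side of the scramble siRNA arrays. The change of Oasl1 was 0.21 ± 0.64 with an interval from −1.39 to 1.80.

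Antiviral GTPases were lower on both Men1 siRNA arrays for all 4 genes, against 21.7% of all genes, at very different levels. Gbp2, a guanylate-binding protein that attacks pathogen-containing membranes, read 593 and 689 against 184 and 255. Its change was −1.56 ± 0.34 (adjusted p = 0.158), with −1.13 at its other target. Gbp3 read 765 and 311 against 87.7 and 91.2, from the group means at least 4.88-fold lower without passing (adjusted p = 0.139). At its other target Gbp3 read 446 and 277 against 47.4 and 177, a change of −1.94 without overlap.

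Mx1 and Mx2 encode dynamin-like GTPases that trap viral particles, and many laboratory strains carry defective copies of them. Mx1 was under 100 on all 4 arrays, at 63.8 and 75.4 against 39.3 and 29.7, so no fold is given. Mx2 read 88.0 and 104 against 41.0 and 36.5, near background in both groups.

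Of the 5 other effectors none passed in limma. At an unadjusted limma p under 0.05, 2 were lower and 0 higher, beside 7.74% and 6.47% of all genes. The groups overlapped for 3 at the brightest target, and for 12691 of all 24172 genes. Isg15, a ubiquitin-like protein attached to host and viral proteins, read 716 and 535 with scramble siRNA, against 134 and 386 with Men1 siRNA. The Men1 siRNA arrays were both lower and far apart from each other, a change of −1.44 ± 0.56 (adjusted p = 0.340). Its second target had −1.45. Rsad2 encodes viperin, which makes a chain-terminating nucleotide, and read 265 and 202 against 87.3 and 71.4, at least 2.31-fold lower without passing.

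Isg20, an exonuclease gene, depended on 1 array. It read 2007 and 554 with scramble siRNA, against 466 and 660 with Men1 siRNA, and without scramble siRNA replicate 1 the change went from −0.93 to 0.0016. At its other 2 targets the groups did not overlap, with −1.95 and −1.77. Bst2 encodes tetherin, which holds budding virus on the cell surface, and read 1139 and 569 against 481 and 694, a change of −0.48 ± 0.45. The 2 other Bst2 targets had −1.26 and −1.14 without overlap. Eif2ak2, the gene of the kinase PKR that halts translation, read 192 and 68.3 against 60.5 and 112, and its sign turned to 0.27 without scramble siRNA replicate 1.

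The Parp genes encode ADP-ribosyltransferase family proteins of the interferon response. Parp9 read 1883 and 719 with scramble siRNA, against 166 and 118 with Men1 siRNA. Its change was −3.06 ± 0.53 (adjusted p = 0.106), while its other target was under 100 on every array. Parp14 read 78.7 and 194 against 97.0 and 75.7, overlapping and close to background.

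Among the remaining 5 measured members, Rtp4 is an interferon-induced chaperone gene. Its replicates lay close together. It read 1795 and 1618 against 271 and 382, a change of −2.41 ± 0.34 (adjusted p = 0.0759). Xaf1, a pro-apoptotic gene, read 823 and 391 against 40.3 and 49.1, at least 5.67-fold lower without passing (limma adjusted p = 0.0559). At its other target Xaf1 read 224 and 34.9 against 56.2 and 34.2, overlapping, with −1.01. Samd9l, an antiproliferative gene, read 234 and 289 against 133 and 110, a change of −1.11 ± 0.33.

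Ifi35 read 97.6 and 110 against 40.7 and 43.0, at the edge of background. Ifi44 read 429 and 152 against 30.9 and 319 at its brightest target, the largest ratio between the Men1 siRNA arrays of any member. At its other target Ifi44 read 262 and 207 against 41.2 and 58.8, a change of −2.24 without overlap.

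**Figure D3:**
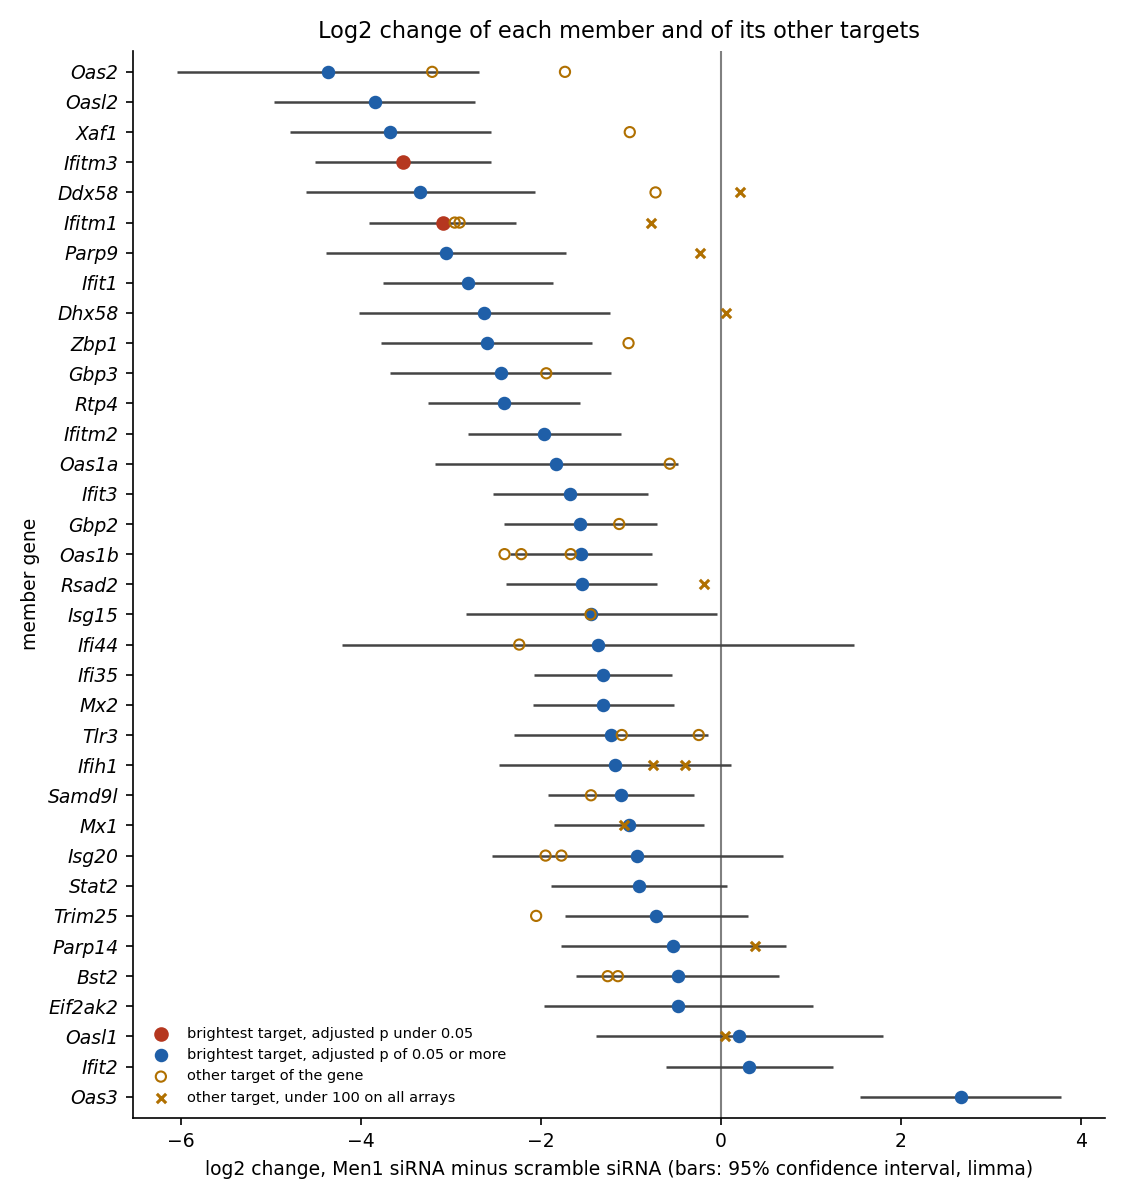
Log2 change (Men1 siRNA minus scramble siRNA) of each member at its brightest target with the 95% confidence interval from limma (n = 2 arrays per group), and of its other targets (open circles, or crosses where under 100 on all arrays). Ifitm3 and Ifitm1 are the 2 called genes; the intervals of 24 members lie below 0, that of Oas3 lies above, and 10 span 0.

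Over all 68 targets the picture was close to that of the brightest ones. Of these, 61 were negative, with a median of −1.34 against 0.06 over all targets. For 49 targets both Men1 siRNA arrays were below, against 21.3% of all targets, and for 2 above, against 25.3%. Of the 23 members with several targets, 19 were negative at every one, and 10 had no overlap at any. The same counts over all genes with several targets were not made, so how unusual these are is not known. Of the 7 positive targets, those of Ddx58, Dhx58, Parp14 and the second of Oasl1 were under 100 on every array. Targets of 1 gene share its RNA and are not replicates.

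The arrays of a group also differed from each other in these genes. Scramble siRNA replicate 1 read above replicate 2 for 27 of 35 members (77.1%), against 44.6% of all genes, with a median log2 difference of 0.42 against −0.08 over all genes. Men1 siRNA replicate 1 read above replicate 2 for 12 members (34.3%), against 50.3% of all genes, with a median of −0.42 against 0.00. More than 2-fold separated the scramble siRNA arrays for 11 members and the Men1 siRNA arrays for 7. Each Men1 siRNA array still had a lower members' median than each scramble siRNA array. Taken gene by gene, the median of the members' log2 differences ran from −2.06 to −1.43 over the 4 pairs. The number of members below ran from 29 of 35 to 33 of 35, against 44.8% to 49.7% of all genes.

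**Figure D4:**
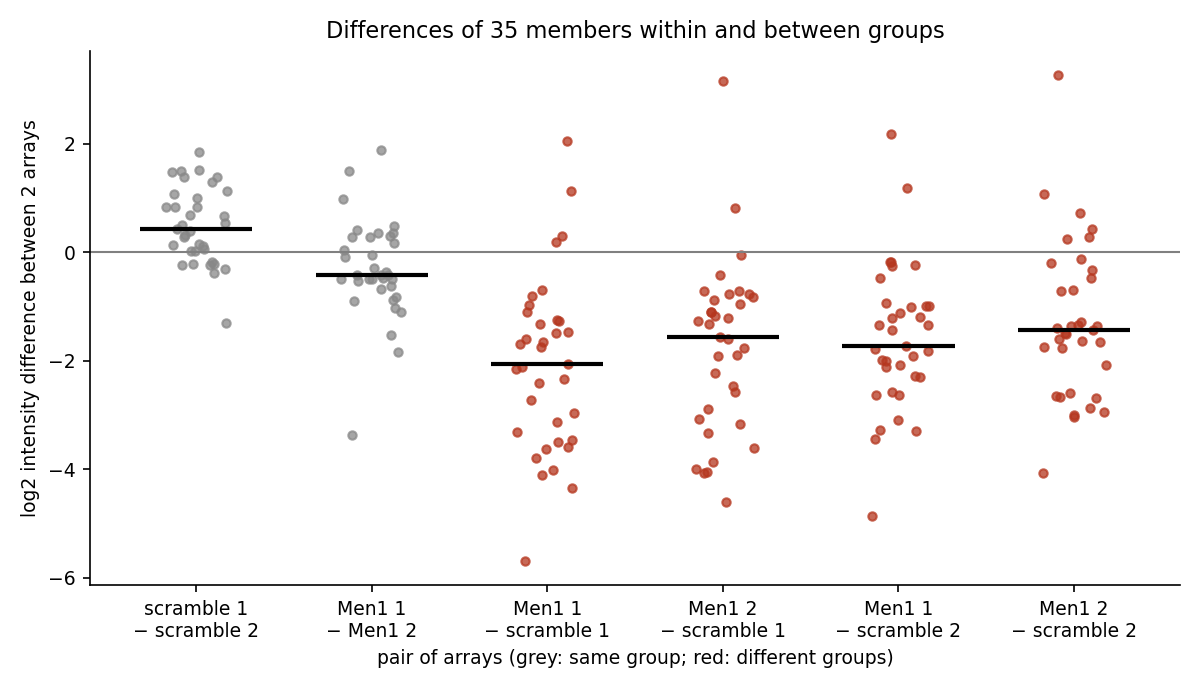
Log2 intensity difference of the 35 members between 2 arrays, for the 2 pairs within a group (grey) and the 4 pairs between groups (red); points are genes with random sideways spread and black bars are medians. Medians are 0.42 and −0.42 within groups and between −2.06 and −1.43 between groups.

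Members that were brighter with scramble siRNA tended to have the more negative changes. Across the 35 genes, Pearson's r between the mean log2 level with scramble siRNA and the log2 change was −0.64. This is a description across genes of the same arrays, and the scramble siRNA values enter both measures.

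Genes upstream of the members were described from a separate list of 24 genes for interferons, receptors, kinases, Stat and Irf factors and their inhibitors. Irf7, which amplifies type I interferon production, was the single gene called, with 2187 and 1351 against 133 and 127 (limma adjusted p = 0.0368). Irf9, the DNA-binding partner of Stat2, read 2181 and 1477 against 480 and 543, a change of −1.81 ± 0.35 (adjusted p = 0.128). Irf1 had −2.45 ± 0.51 and the receptor kinase gene Jak2 −1.82 ± 0.39, neither passing. The list's median was −0.69. Both Men1 siRNA arrays were below for 14 of the 24 genes and above for 4, against 21.7% and 25.8% of all genes.

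Ligand and receptor genes varied in sign and size. Ifnb1, the gene of interferon beta, read 35.2 and 62.7 against 72.9 and 122, a change of 1.01 ± 0.45 near background, and Ifna2 was under 100 on every array. The receptor chains Ifnar1 and Ifnar2 had −0.31 ± 0.31 and −0.68 ± 0.30, and the kinase gene Jak1 0.09 ± 0.31. Il10rb, a receptor chain shared by lambda interferons, had −1.57 ± 0.39. Its partner Ifnlr1 read 377 and 116 against 91.5 and 99.3, so scramble siRNA replicate 2 lay near 100. From the group means Ifnlr1 was at least 2.09-fold lower, but the interval of its log2 change ran from −2.61 to 0.34. None of these passed.

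Of 19 measured genes of nucleic acid sensing and its adaptors 0 passed in limma, and the median was −0.62. At an unadjusted limma p under 0.05, 8 were lower and 0 higher, beside 7.74% and 6.47% of all genes. Myd88, the adaptor of most Toll-like receptors, read 4929 and 2115 against 224 and 248, a change of −3.77 ± 0.48 (adjusted p = 0.0591). Ticam1, the adaptor of Tlr3, had −1.63 ± 0.31, Nod1 −2.02 ± 0.31 and Rnf135, a ligase acting on RIG-I, −1.58 ± 0.42. Mavs, the mitochondrial adaptor of RIG-I and Mda5, had −0.56 ± 0.31, and the kinase gene Tbk1 0.47 ± 0.34.

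A further 50 interferon-stimulated genes, none of them members, had a median of −0.69, with 40 negative. Both Men1 siRNA arrays were below for 31 and above for 5, against 21.7% and 25.8% of all genes. In limma 0 passed. At an unadjusted limma p under 0.05, 18 were lower and 1 higher, beside 7.74% and 6.47% of all genes. Lgals3bp, a secreted glycoprotein gene, had −2.86 ± 0.36, the GTPase gene Igtp −2.52 ± 0.37 and Parp10 −1.80 ± 0.31. Gbp4 was at least 3.47-fold lower without passing.

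Epithelial, fibroblast and endothelial markers also had negative changes, of very different sizes, and their part in the antiviral gene values was not tested. Of all genes, 21.7% had both Men1 siRNA arrays below and 0.352% were called lower. Of 10 epithelial markers all had both Men1 siRNA arrays below, 5 were called lower in limma (Krt8, Krt18, Cdh1, Cldn3 and Muc1), and the median was −4.25. Their summed intensity was 31132 and 20632 with scramble siRNA, against 1296 and 2350 with Men1 siRNA. Of 12 fibroblast markers 4 were called lower (Col6a2, Col1a1, Col6a1 and Col1a2), the median was −3.04, and the sums were 66170 and 60502 against 10313 and 10060. Of 10 endothelial markers 2 were called lower (Eng and Emcn), and the median was −2.02. Flt1 was at least 4.79-fold lower and Cdh5 had −3.18 ± 0.38, neither passing. The endothelial sums were 10735 and 6863 against 2098 and 1972. The smallest changes among fibroblast markers were −0.20 ± 0.31 for Thy1 and −0.33 ± 0.30 for Pdgfra. Among endothelial markers they were −0.28 ± 0.40 for Cldn5, which overlapped, and −0.49 ± 0.32 for Vwf.

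Immune markers were mixed. Of 14, both Men1 siRNA arrays were below for 5 and above for 3, against 21.7% and 25.8% of all genes. The median was −0.04, and 0 passed in limma. At an unadjusted limma p under 0.05, 2 were lower and 2 higher, beside 7.74% and 6.47% of all genes. The immune sums were 14844 and 12310 against 8519 and 11651. The monocyte receptor gene Cd14 had −2.23 ± 0.31 and the macrophage gene Cd68 −1.19 ± 0.33, whereas the Fc receptor gene Fcgr3 had 0.99 ± 0.39. Ptprc, the pan-leukocyte gene CD45, read 761 and 189 against 497 and 399. No immune marker was under 100 on all 4 arrays.

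Of 8 forebrain markers all were positive, with a median of 0.66, and 0 passed in limma. At an unadjusted limma p under 0.05, 0 were lower and 2 higher, beside 7.74% and 6.47% of all genes. The forebrain sums were 12661 and 19979 against 25611 and 23584. Gad2 had 1.23 ± 0.39, Gad1 0.86 ± 0.34, Slc17a7 0.85 ± 0.41 and Tbr1 0.71 ± 0.37. Of 10 neuroblast markers Gata2 was called lower, at least 45.5-fold, the median was 0.34, and the sums were 13946 and 14080 against 15273 and 12886. Ret was at least 2.27-fold higher without passing, Gata3 had −1.83 ± 0.40 and Chgb 0.70 ± 0.31.

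**Figure D5:**
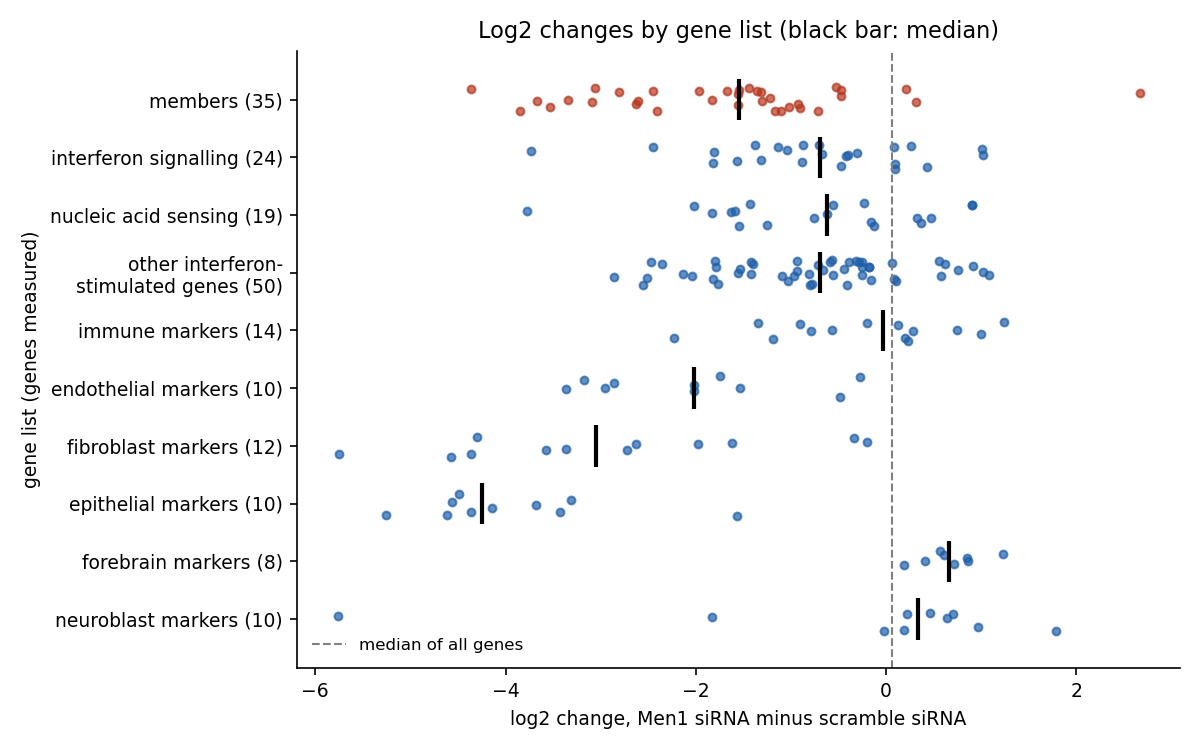
Log2 change of every measured gene in the member list (red) and in the other lists (blue), with list medians as black bars and the median of all genes, 0.06, as a dashed line. The members' median of −1.55 lies below those of the signalling, sensing and other interferon-stimulated lists (−0.69, −0.62 and −0.69) and above those of the endothelial, fibroblast and epithelial markers (−2.02, −3.04 and −4.25).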

How the data were processed

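Single-colour arrays of Cy3-labelled RNA were used, 2 of scramble siRNA and 2 of Men1 siRNA. The authors deposited linear intensities per target, which carry the mark RMA (robust multi-array average), per the file headers and names. The labels name no background correction. The labelling protocol is of NimbleGen arrays although the series text names Agilent. The array name inside the file of Men1 siRNA replicate 1 carries the number 2, and the deposited value table holds the 2 scramble siRNA columns exchanged. That table has the 20620 targets that reached 100 on all arrays, which set the level used here. Files are on build MM9. Symbols were updated by gene ID (21583 of 24204 matched).

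Log2 intensities, without a pseudocount, were fitted by lmFit and eBayes of limma 3.58.1 (R 4.3.3) on group alone, over 24172 genes at the brightest target, with a threshold of 0.05. The script was tested on simulated data. "At least" folds set the brighter group's mean log2 value against 100 on each array where both arrays of the other group were under 100. They are bounds from group means, so single pairs of arrays and confidence intervals can lie nearer to no change. The number of arrays limits the precision. All members are described, and of each other list up to 4 genes by smallest p and called genes. Some pathway and marker genes were added after their values were seen (Ifnb1, Ifna2, Ifnar1, Ifnar2, Ifnlr1, Il10rb, Jak1, Mavs, Tbk1, Ifit3b, Ptprc, Chga, Mycn, Thy1, Pdgfra, Cldn5 and Vwf). Values of a few marker and pathway genes are not reported here. Members, lists and roles were chosen with earlier results of these data known. Python 3.11.15, pandas 2.3.3 and matplotlib 3.10.9 were used.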

Additional observations from a re-analysis of the deposited data

How the results depend on the processing

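The members' median log2 change stayed within 1 SD of array medians (0.37) of its value of −1.55 under every setting that gave it, from −1.21 with a floor at an intensity of 100 to −1.74 without replicate 2 of either group. With 1 array left out at a time, the sign turned for 6 of 35 members: Bst2 (range −0.979 to 0.022) and Isg20 (−1.86 to 0.0016), both without scramble siRNA replicate 1, and Eif2ak2 (−1.22 to 0.27), also without that array. Parp14 (−1.18 to 0.12) turned without scramble siRNA replicate 2. Ifi44 (−3.04 to 0.32) and Oasl1 (−0.74 to 1.15) turned without Men1 siRNA replicate 1. With the floor, Mx1 had no change, since all its values lie under 100.

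Counts of calls moved most. Same-numbered arrays did not deviate together (r = −0.17 across targets), and the labels do not pair them. With the replicate number as a block, 69 genes passed instead of 94 and 1 member, Oasl2, instead of 2. Without any 1 array, 0 genes and 0 members passed in limma (22 to 26 members and 2105 to 3357 genes at an unadjusted p under 0.05). Cyclic loess gave 85 genes and 1 member, Ifitm1. The value table gave 422 genes and 9 members of 17 held, 13 of them without overlap, from fewer genes tested. The mean of all targets gave 90 genes and 4 members. A trended prior gave 711 genes and 14 members (13 lower, 1 higher), a pseudocount of 32 gave 252 and 7, a filter on dim genes gave 289 and 7, and a floor at 100 gave 8 and 0 (21 members and 3255 genes at an unadjusted p under 0.05). The cause of these differences was not tested. An adjusted p under 0.1 gave 326 genes and 9 members, and an unadjusted p under 0.05 gave 3435 and 25. With crossed replicate numbers as a block, added after seeing the data, 0 genes and 0 members passed in limma (27 members and 3980 genes at an unadjusted p under 0.05). Signal over background limits the members near an intensity of 100, whose sizes are uncertain.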
